A study of Mus musculus with 6 samples.

Results

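The miR-34 and miR-449 miRNAs were examined in the aorta of mice with and without Dicer in endothelial cells (ECs), the RNAse that cuts mature miRNAs from their hairpin precursors. Members were taken by name: every mouse assay of miR-34a, miR-34b, miR-34c or miR-449 in the deposited table, apart from names that end in an asterisk. This gave 8 of 596 mouse miRNA assays, namely 1 of miR-34a, 4 of the miR-34b/c cluster (miR-34b, miR-34b-3p, miR-34b-5p and miR-34c) and 3 of miR-449 (miR-449a and 2 assays of miR-449b). Aortas of 3 EC-Dicerflox mice (genotype Dicer1flox/flox) were compared with those of 3 EC-DicerWT littermates (genotype Dicer1WT/WT). Mice of both groups were Apoe-/-, lacking apolipoprotein E, and carried the VE-Cadherin-CreERT2 transgene. Its Cre recombinase had been induced with tamoxifen (TMX) at 2 mg for every 20 g of body weight on each of 5 days in a row. They were 6 to 8 weeks old when a high-fat diet (HFD) with 21% crude fat and 0.15% cholesterol began, and were studied after 4 weeks of HFD. VE-Cadherin drives the recombinase in ECs, whereas the RNA came from the aortic wall with all of its cell types. Dicer1 mRNA is no target of these assays, so that the deletion was not checked here.

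MiR-34a and the miR-34b/c cluster are known as transcriptional targets of p53, the tumour suppressor that responds to DNA damage. Their mature strands repress mRNAs of cell cycle and survival proteins, among them cyclin-dependent kinases, BCL2 and the deacetylase SIRT1, and miR-34a is known from ageing vessels and senescent ECs. MiR-449 carries the miR-34 seed at a separate locus, is induced by the cell cycle factor E2F1 and is best known from ciliated epithelia. In the annotation, Mir34a lay on chromosome 4 and overlapped no other gene. Mir34b and Mir34c lay on chromosome 9, overlapping Btg4 and Hoatz, and Mir449a, Mir449b and Mir449c lay on chromosome 13, overlapping Cdc20b.

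The mature sequences show which assays read strands with the same seed, the stretch that pairs with target mRNAs. They are from RefSeq (GRCm38.p6), from 5′ to 3′, with the seed (bases 2 to 8) in capitals. Of the 8 assays, 4 had a mature entry of the same strand, and miR-449c-5p and miR-34c-3p, the strand of the assay named miR-34c*, are added for comparison.
miR-34a-5p: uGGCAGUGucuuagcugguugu
miR-34b-5p: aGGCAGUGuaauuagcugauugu
miR-449a-5p: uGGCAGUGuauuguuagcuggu
miR-449c-5p: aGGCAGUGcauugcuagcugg
miR-34b-3p: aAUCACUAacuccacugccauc
miR-34c-3p: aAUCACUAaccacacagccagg

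The seed GGCAGUG was shared by 4 mature mouse miRNAs of the table, the first 4 listed, and AUCACUA by 2, the 3′ strands of miR-34b and miR-34c. Counted from the 5′ end without gaps, miR-34a-5p was identical to miR-449a-5p at 15 of 22 positions and to miR-34b-5p at 11 of 22. MiR-449a-5p and miR-449c-5p were identical at 18 of 21 positions, and the 3′ strands of miR-34b and miR-34c at 17 of 22. MiR-34b-3p thus comes from the p53-linked hairpin without carrying the miR-34 seed. The 5′ strand of miR-34c and miR-449b had no entry, so that the count for GGCAGUG is one of the table. The annotation gives Mirn449b as an older name of both Mir449b and Mir449c, so which of these RNAs the miR-449b assays read is not settled, and how far any assay distinguishes strands this alike was not tested.

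Each assay gave a CT, the PCR cycle at which its signal crosses a threshold, so that a higher CT means less RNA, and an undetermined well has the value 40. Delta CT is the distance from the mean of 2 control RNAs, U6 and snoRNA135, which were measured on both cards of the array. A lower delta CT means a higher relative level, and 1 cycle corresponds to a 2-fold difference if the amplification is complete. In whole tissue, fewer cells of a type and less RNA per cell cannot be told apart. EC-Dicerflox replicate 3 stood apart, with 375 miRNAs under a CT of 40 against 402 to 415 in the other 5 samples and the highest median CT (28.2 against 26.4 to 27.5). U6 spanned 0.84 cycles over the 6 samples and snoRNA135 spanned 2.28 cycles. The mean CT of both was 19.27 ± 0.83 in EC-Dicerflox mice and 19.12 ± 0.43 in EC-DicerWT mice (SD, n = 3 per group), and this difference enters each log2 fold change.

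The family was unequally detected in the aorta. MiR-34a gave the strongest signal in every sample, with a delta CT of 5.84 ± 0.20 (SD, n = 3) in EC-DicerWT mice, and 35.4% of the 350 miRNAs detected in all samples had a lower delta CT. MiR-34b-3p followed at 8.13 ± 0.21, near the middle of the 350 miRNAs, 51.7% of which had a lower delta CT. MiR-34c lay at 11.57 ± 0.50 and was preceded by the assay of its 3′ strand, miR-34c*, at 8.83 ± 0.17. The remaining assays came up later, with miR-449b (the assay on card B) at 12.58 ± 0.96, miR-34b-5p at 13.87 ± 0.94 and miR-449a at 13.89 ± 0.90. Over the 6 samples the ranges of miR-34a, miR-34b-3p, miR-34c* and miR-34c were separate from each other. The ranges of miR-34c and miR-449b overlapped, as did those of miR-449b and miR-34b-5p and those of miR-34b-5p and miR-449a. How efficiently each assay amplifies is unknown, so that this is an order of CT values and not of molecules. The miR-449b assay on card A was at 40 in all 6 samples and was not tested, and the assay named miR-34b was under 40 in 2 samples. Thus 7 of the 8 assays passed the filter of a CT under 40 in at least 1 sample, and 5 were under 40 in all samples.

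**Figure D1:**
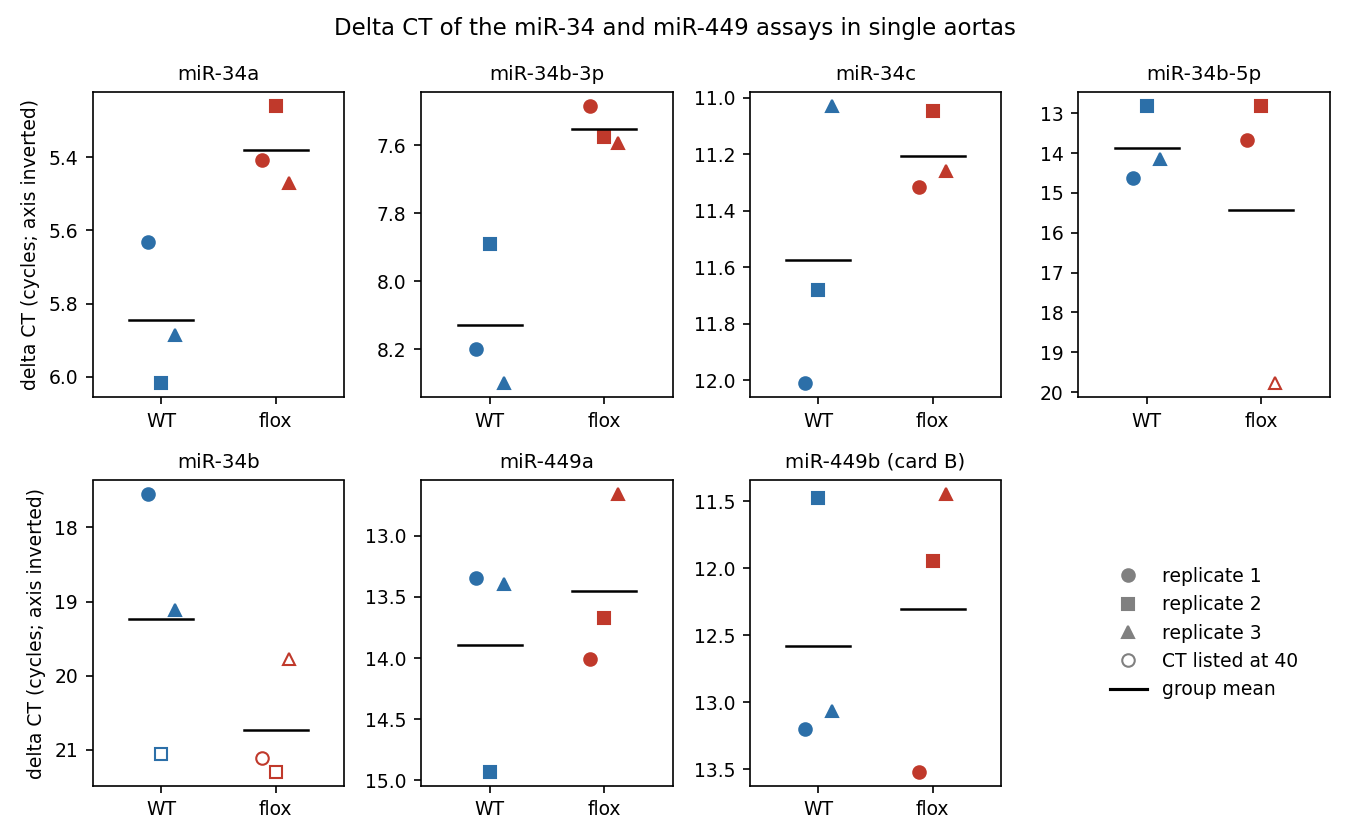
Delta CT in cycles (vertical axis, inverted so that a higher level is higher, with a scale of its own in each panel) of the 7 tested miR-34 and miR-449 assays in the 3 EC-DicerWT and 3 EC-Dicerflox aortas. Points are samples, open points are wells listed at a CT of 40 and lines are group means. For miR-34a and miR-34b-3p all 3 EC-Dicerflox points lie above the 3 EC-DicerWT points, and in the other panels the groups overlap.

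The comparison of both groups asks whether members of this family differed in the aorta after the deletion of endothelial Dicer. No member passed the test, in either direction. Of the 7 tested assays, 5 had a log2 fold change (EC-Dicerflox minus EC-DicerWT) above 0 and 2 below 0, and 251 of all 461 miRNAs tested (54.4%) lay above 0. The 2 below 0 rest on wells at the limit, and miR-34b-5p had 1 EC-Dicerflox well at 40. MiR-34b had no signal in EC-Dicerflox mice and passed the filter only through EC-DicerWT wells, so that its sign is not read as a result. The median log2 fold change was 0.44 over the 5 members detected in all samples and 0.10 over the 350 miRNAs detected in all samples. An adjusted limma p under 0.05 was reached by 0 of the 7 members and by 0 of the 461 miRNAs (0.0%). An unadjusted limma p under 0.05 was reached by 0 of the members and by 14 of the 461 miRNAs (3.04%), 5 higher (1.08%) and 9 lower (1.95%) in EC-Dicerflox mice. An ordinary linear model for each miRNA gave 24 of the same 461 miRNAs at an unadjusted p under 0.05, 14 higher and 10 lower. Among these were 2 of the 7 members, miR-34a and miR-34b-3p, and 0 of the 461 miRNAs passed at an adjusted p under 0.05 in this model. The delta CT values of both groups did not overlap for 2 members, and this held for 48 of the 461 miRNAs (10.4%), 28 higher (6.07%) and 20 lower (4.34%) in EC-Dicerflox mice.

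MiR-34a, the member of the family with the widest expression across tissues, was measured at CT values of 24.30, 23.96 and 25.70 in EC-Dicerflox replicates 1 to 3 and 24.44, 24.96 and 25.49 in EC-DicerWT replicates 1 to 3. Before normalisation the groups overlapped, with a log2 difference of 0.31 (exact permutation test, p = 0.7, n = 3 per group). Delta CT was 5.41, 5.26 and 5.47 in EC-Dicerflox mice and 5.63, 6.02 and 5.89 in EC-DicerWT mice. The highest EC-Dicerflox value lay 0.16 cycles below the lowest EC-DicerWT value. The means were 5.38 ± 0.11 and 5.84 ± 0.20 (SD, n = 3 per group), a log2 fold change of 0.46 (SE 0.24, 95% interval -0.14 to 1.07) or 1.38-fold. This difference did not pass the test (limma, unadjusted p = 0.109, Benjamini-Hochberg adjusted p = 0.923). The exact permutation p was 0.1, which is the smallest that 3 against 3 samples allow. Of the 350 miRNAs detected in all samples, 16.0% had a higher log2 fold change. With 7 references tried, the log2 fold change of miR-34a ranged from 0.30 to 0.55 and its groups were separate with 4 of them, not with U6 alone, snoRNA135 alone or the controls of the same card.

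MiR-34b-3p showed a similar arrangement of the samples. Delta CT was 7.48, 7.58 and 7.59 in EC-Dicerflox mice and 8.20, 7.89 and 8.30 in EC-DicerWT mice. The EC-Dicerflox values lay close together and all were lower than the EC-DicerWT values, by at least 0.30 cycles. The means were 7.55 ± 0.06 and 8.13 ± 0.21 (SD, n = 3 per group), a log2 fold change of 0.58 (SE 0.24, 95% interval -0.029 to 1.18) or 1.49-fold, which did not pass the test (limma, unadjusted p = 0.0584, adjusted p = 0.923). The exact permutation p was again 0.1, and it was 0.5 for the CT values without normalisation (n = 3 per group). Among the 350 miRNAs, 10.9% had a higher log2 fold change. The groups were separate with 5 of the 7 references, not with U6 alone or snoRNA135 alone, and the log2 fold change ranged from 0.42 to 0.66.

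MiR-34c, which is made from the same primary transcript as miR-34b, had delta CT values of 11.31, 11.05 and 11.26 in EC-Dicerflox mice and 12.01, 11.68 and 11.03 in EC-DicerWT mice. EC-DicerWT replicate 3 held the lowest value of the 6, so that the groups overlapped. The log2 fold change was 0.37 (SE 0.34, 95% interval -0.48 to 1.22, limma unadjusted p = 0.323), and it was 0.64 without EC-DicerWT replicate 3 and 0.15 without EC-DicerWT replicate 1. The groups were separate with 0 of the 7 references. Of the 350 miRNAs, 21.7% had a higher log2 fold change. Its 3′ strand lay on the other side of 0. MiR-34c* had delta CT values of 9.02, 9.27 and 8.98 in EC-Dicerflox mice and 9.01, 8.69 and 8.78 in EC-DicerWT mice, a log2 fold change of -0.27 (SE 0.24, 95% interval -0.88 to 0.35, limma unadjusted p = 0.319) with overlapping groups. The groups of miR-34c* were separate with 1 of the 7 references, snoRNA202 alone (-0.43).

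The 5′ strand of miR-34b, which carries the miR-34 seed, gave weak signals. The assay named miR-34b-5p had CT values of 32.56 and 31.53 in EC-Dicerflox replicates 1 and 2, was undetermined (40) in EC-Dicerflox replicate 3, and gave 33.45, 31.76 and 33.76 in EC-DicerWT mice. The EC-Dicerflox samples with a signal had delta CT values of 13.67 and 12.83, within the 12.82 to 14.64 of EC-DicerWT mice. With the undetermined well at 40, the fitted log2 fold change was -1.55 (SE 1.97, 95% interval -6.53 to 3.42, limma unadjusted p = 0.464). Without EC-Dicerflox replicate 3, the library with the fewest detected miRNAs, it was 0.62. A further assay is named miR-34b only, and which strand it reads is not settled by the files. It was at 40 in all 3 EC-Dicerflox samples and in EC-DicerWT replicate 2, and came up at 36.37 and 38.72 cycles in EC-DicerWT replicates 1 and 3. It passed the filter only through these EC-DicerWT wells, and the limit was reached in both groups. The fitted log2 fold change of this assay is counted and plotted with the others but is not read as a result.

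Of the miR-449 members, miR-449a had CT values of 32.90, 32.38 and 32.89 in EC-Dicerflox mice and 32.16, 33.87 and 33.00 in EC-DicerWT mice. Delta CT was 14.01, 13.68 and 12.66 against 13.35, 14.93 and 13.39. EC-DicerWT replicate 2 was the lowest in level and EC-Dicerflox replicate 3 the highest, whereas between them EC-DicerWT replicates 1 and 3 were higher in level than EC-Dicerflox replicates 1 and 2. The log2 fold change of 0.44 (SE 0.61, 95% interval -1.10 to 1.98, limma unadjusted p = 0.499) turned to -0.077 without EC-DicerWT replicate 2. The miR-449b assay on card B gave delta CT values of 13.52, 11.94 and 11.45 in EC-Dicerflox mice and 13.20, 11.48 and 13.07 in EC-DicerWT mice. Each group held both high and low values. Its log2 fold change was 0.28 (SE 0.75, 95% interval -1.63 to 2.18, limma unadjusted p = 0.728), and it was -0.15 without EC-Dicerflox replicate 3 and -0.031 without EC-DicerWT replicate 1. The intervals of miR-449a and miR-449b include more than a 2-fold difference either way.

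**Figure D2:**
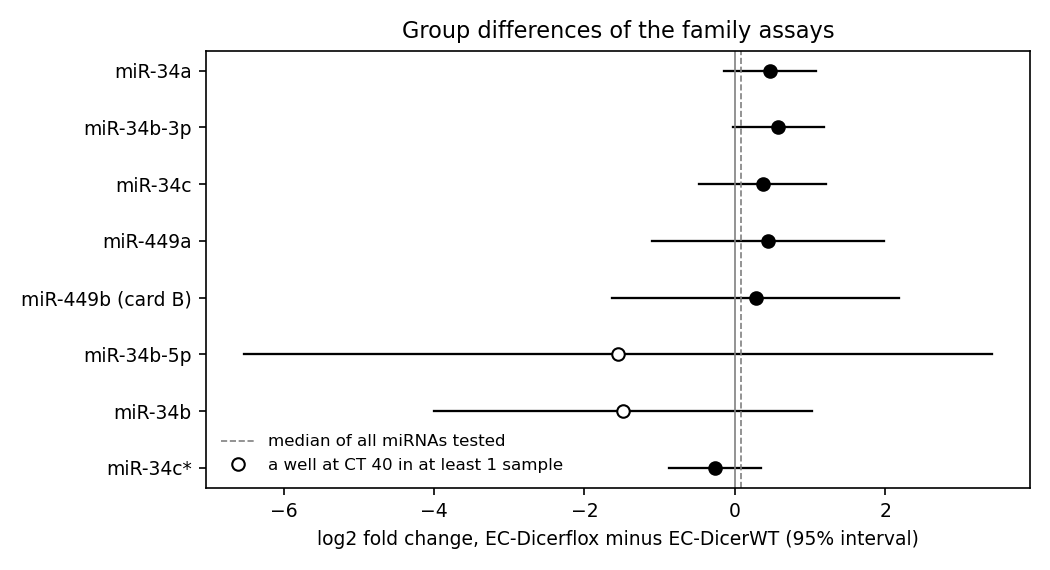
Log2 fold change (EC-Dicerflox minus EC-DicerWT, horizontal axis) of the 7 tested family assays and of miR-34c*, the 3′ strand of miR-34c, with 95% intervals of the limma fit as lines (n = 3 per group). Open points had a well at a CT of 40 in at least 1 sample and rest on that limit. MiR-34b had no signal in EC-Dicerflox mice and passed the filter only through EC-DicerWT wells, so that its interval is not read as a test. The dashed line marks the median of the 461 miRNAs tested (0.08), and the intervals of all other assays shown include 0.

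Differences between assays within a sample compare miR-34a directly with the rest of the family and, for assays on card A like miR-34a (miR-34b-3p, miR-34c and miR-449a), need no control RNA. The other assays lie on card B, so that a difference between the cards enters their distance. They asked whether the balance of the family differed between the groups. CT of miR-34b-3p minus CT of miR-34a was 2.08, 2.32 and 2.12 cycles in EC-Dicerflox mice and 2.57, 1.87 and 2.41 cycles in EC-DicerWT mice. The EC-Dicerflox values lay inside the range of the EC-DicerWT values. The group difference was -0.11 cycles (exact permutation test, p = 0.6, n = 3 per group). For miR-34c minus miR-34a the values were 5.91, 5.79 and 5.79 cycles in EC-Dicerflox mice and 6.38, 5.66 and 5.14 cycles in EC-DicerWT mice. The 3 EC-Dicerflox samples lay within 0.12 cycles and the 3 EC-DicerWT samples within 1.24 cycles, and the means of 5.83 ± 0.07 and 5.73 ± 0.62 (SD, n = 3) differed by 0.10 cycles (exact permutation test, p = 0.7). Whether the spread differed was not tested.

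MiR-449a stood 8.60, 8.42 and 7.19 cycles behind miR-34a in EC-Dicerflox mice and 7.72, 8.91 and 7.51 cycles in EC-DicerWT mice. The samples of both groups were interspersed and the means differed by 0.022 cycles (exact permutation test, p = 1.0, n = 3 per group). MiR-449b on card B stood 8.11, 6.68 and 5.98 cycles behind miR-34a in EC-Dicerflox mice and 7.56, 5.46 and 7.18 cycles in EC-DicerWT mice, a difference of 0.19 cycles (exact permutation test, p = 0.8) that was 0.077 cycles with each assay set against the controls of its own card (p = 1.0). The distance of miR-34b-5p from miR-34a was 8.26 and 7.57 cycles in EC-Dicerflox replicates 1 and 2, 14.30 in replicate 3 with its well at the limit, and 9.01, 6.80 and 8.27 cycles in EC-DicerWT mice. The group difference of 2.02 cycles (exact permutation test, p = 0.6, n = 3 per group) became -0.11 without EC-Dicerflox replicate 3. The assay named miR-34b, with 4 of its 6 wells at the limit, gives no distance that could be compared. Of the 5 remaining comparisons with miR-34a, 0 reached the smallest p of 0.1.

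Within the miR-34b/c cluster, 3 more distances were computed, chosen after the values were seen. MiR-34c stood 3.83, 3.47 and 3.66 cycles behind miR-34b-3p in EC-Dicerflox mice and 3.81, 3.79 and 2.73 cycles in EC-DicerWT mice. Apart from EC-DicerWT replicate 3, the 5 samples lay close together, and the group difference of 0.21 cycles (exact permutation test, p = 0.8, n = 3 per group) was -0.15 without it. Both strands of miR-34c could be set against each other. CT of miR-34c minus CT of miR-34c* was 2.29, 1.77 and 2.28 cycles in EC-Dicerflox mice and 3.00, 2.99 and 2.25 cycles in EC-DicerWT mice, with EC-DicerWT replicate 3 among the EC-Dicerflox values. The group difference was -0.63 cycles (exact permutation test, p = 0.3), and it kept its sign in each of the 6 fits that left out 1 sample, from -0.88 to -0.46 cycles. MiR-34c lies on card A and miR-34c* on card B, so that a difference between the cards enters this distance. With each assay set against the controls of its own card, the group difference was -0.52 cycles (exact permutation test, p = 0.2). The same distance for miR-34b, 5′ minus 3′ strand, was 6.19 and 5.25 cycles in EC-Dicerflox replicates 1 and 2, 12.18 in replicate 3 with its well at 40, and 6.44, 4.93 and 5.86 cycles in EC-DicerWT mice. Its group difference of 2.13 cycles (exact permutation test, p = 0.5) was -0.022 cycles without EC-Dicerflox replicate 3. Both strands of miR-34b, too, were measured on different cards.

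**Figure D3:**
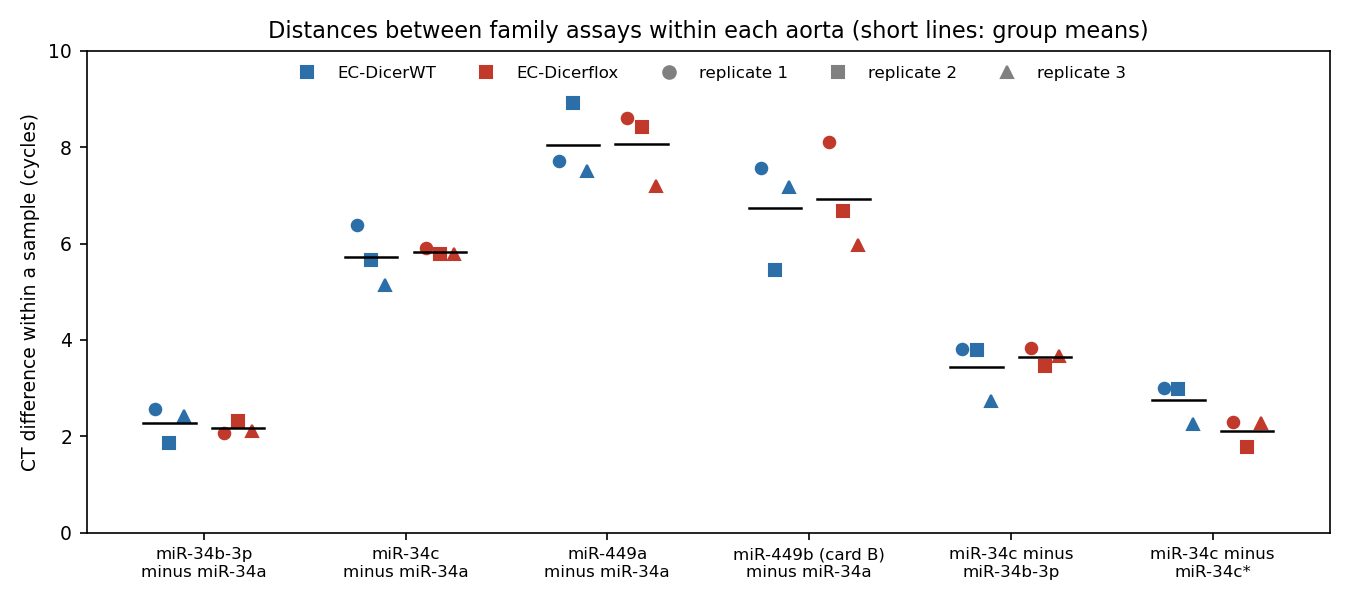
CT differences between assays of the same sample in cycles (vertical axis) for 6 pairs of assays under 40 in all samples, in EC-DicerWT (blue) and EC-Dicerflox (red) aortas. Points are samples and short lines are group means, and in each pair the groups overlap.

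Pairs of the same replicate number were also set side by side, although no source used here ties a number to a litter or a day. In log2 units, miR-34a was higher in the EC-Dicerflox mouse by 0.22, 0.76 and 0.41 in pairs 1 to 3, and miR-34b-3p by 0.71, 0.31 and 0.71. MiR-34c was higher by 0.70 and 0.63 in pairs 1 and 2 and stood at -0.23 in pair 3. MiR-449a stood at -0.66, 1.25 and 0.73, and miR-449b on card B at -0.32, -0.46 and 1.62. MiR-34b-5p stood at 0.97, -0.013 and, with the EC-Dicerflox well at 40, -5.62. The assay named miR-34b gave no EC-Dicerflox signal in any of the 3 pairs. The 3′ strand miR-34c* stood at -0.011, -0.58 and -0.20. Since the groups of miR-34a and miR-34b-3p do not overlap, any pairing of the samples would give them a single sign.

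The miRNAs with the most similar course over the 6 samples were sought by the root mean square distance between delta CT values, each centred on its own mean, among the 349 others detected in all samples. For miR-34a these were let-7c (0.10 cycles), miR-148a (0.11) and miR-125b-5p (0.12), against a median distance of 0.50. MiR-34b-3p was number 37 in this order for miR-34a at 0.23 cycles, and miR-34c number 115 at 0.36. For miR-34b-3p the nearest were miR-23b (0.16), miR-379 (0.17) and miR-29a (0.18), and miR-34a was number 16. For miR-34c they were miR-350 (0.18), miR-676* (0.18) and miR-132 (0.19), with miR-34a at number 44 and miR-34b-3p at number 63. MiR-449a was nearest to miR-15a (0.25), miR-1896 (0.25) and miR-1 (0.33). For miR-449b on card B the nearest, miR-467e, miR-1930 and miR-615-3p, were 0.61 to 0.64 cycles away, and miR-449a was number 235 at 1.13. The members were thus not the nearest neighbours of each other. All distances are over 6 samples that share their control RNAs.

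Other miRNAs of the p53 pathway are known as its transcriptional targets (miR-192, miR-194, miR-215, miR-107, miR-15a and miR-16, miR-200c) or as processed from their precursors with its help (miR-143, miR-145). All 9 of these were tested, 0 passed the adjusted limma test, and 6 had a log2 fold change above 0 and 3 below 0, with a median of 0.14 against 0.08 over all 461 miRNAs tested. MiR-143 and miR-145 also mark smooth muscle and miR-200c epithelium. MiR-215, which shares its seed region with miR-192, had the lowest value, with CT values of 31.30, 31.78 and 33.68 in EC-Dicerflox mice and 31.08, 30.66 and 31.05 in EC-DicerWT mice. Its log2 fold change was -1.17 (SE 0.40, limma unadjusted p = 0.0313, adjusted p = 0.923). Its groups did not overlap, as for 4.34% of the 461 miRNAs in this direction. An unadjusted p under 0.05 with a lower level was found for 1 of the 9 and for 9 of the 461 miRNAs (1.95%). MiR-192 had the highest log2 fold change of the list, 0.84 (SE 0.90, limma unadjusted p = 0.390).

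Of 5 miRNAs known to repress p53 itself, 0 passed the adjusted or the unadjusted limma test, 4 lay above 0 and 1 below, and the median log2 fold change was 0.32. The highest was miR-125b-5p at 0.46 (SE 0.24, limma unadjusted p = 0.111). It was the 1 of the 5 whose groups did not overlap, as for 6.07% of the 461 miRNAs in this direction. The lowest was miR-504 at -1.83 (SE 1.03, limma unadjusted p = 0.134), which was at 40 in EC-Dicerflox replicate 3. Of 8 tested assays of miRNAs linked to ageing of the vessel wall (the miR-29 family, miR-92a, miR-146a, miR-217 and both strands of miR-126), 0 passed either limma test, 7 lay above 0 and 1 below, and the median was 0.36. In 4 of the 8 the EC-Dicerflox values were all higher than the EC-DicerWT values, against 6.07% of the 461 miRNAs. The highest was miR-126-5p at 0.85 (SE 0.38, limma unadjusted p = 0.0727). The lowest was the miR-217 assay on card B at -2.40 (SE 1.58, limma unadjusted p = 0.186), which was at 40 in EC-Dicerflox replicate 3 and EC-DicerWT replicate 1.

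The miRNAs of cell types in the vessel wall were set beside these values, as levels relative to U6 and snoRNA135 summed over each list. The EC miRNAs miR-126-3p and miR-126-5p, both detected in all samples, summed to 2.07 to 3.31 in EC-Dicerflox mice and 1.79 to 1.87 in EC-DicerWT mice, without overlap and in the same direction as miR-34a and miR-34b-3p. The exact permutation p of this sum was 0.1, the smallest possible. Neither passed the limma test, with log2 fold changes of 0.41 for miR-126-3p (unadjusted p = 0.193) and 0.85 for miR-126-5p (unadjusted p = 0.0727). The groups of each were separate, as for 6.07% of the 461 miRNAs in this direction. The part of these EC miRNAs in the values of miR-34a and miR-34b-3p was not tested. The smooth muscle miRNAs miR-143 and miR-145 summed to 19.7 to 47.0 and 18.7 to 28.5, with the highest value in EC-Dicerflox replicate 3, and 4 leukocyte miRNAs to 0.54 to 0.85 and 0.69 to 1.25. Both lists overlapped between the groups. Of the 4 leukocyte miRNAs, 1 had a log2 fold change above 0 (miR-223, 0.17) and 3 below 0. The groups of 1 of them, miR-142-5p (log2 fold change of -0.996, limma unadjusted p = 0.00989, adjusted p = 0.923), did not overlap, as for 4.34% of all 461 miRNAs in this direction. Of 7 miRNAs of epithelium, the cells in which miR-449 is best known, all were tested and they summed to 0.040 to 0.087 and 0.030 to 0.047, with miR-205 at 40 in EC-Dicerflox replicate 3 and EC-DicerWT replicate 2. Their median log2 fold change was -0.68, with 3 above 0 and 4 below, and 0 passed either limma test. MiR-203, which had the lowest CT of the list in each sample and so weighs most in the sum, had a log2 fold change of 0.89, and that of miR-429 was -1.39. The groups of 1 of the 7, miR-200a (-0.94, limma unadjusted p = 0.0788), did not overlap, with the lower level in EC-Dicerflox mice, as for 4.34% of all 461 miRNAs. The striated muscle miRNAs, of which 4 of 5 were on the array, summed to 1.03 to 1.38 and 1.02 to 1.12, with miR-208 at 40 in EC-Dicerflox replicate 3 and EC-DicerWT replicates 1 and 3, and the erythroid miR-451 to 0.095 to 0.22 and 0.065 to 0.33.

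**Figure D4:**
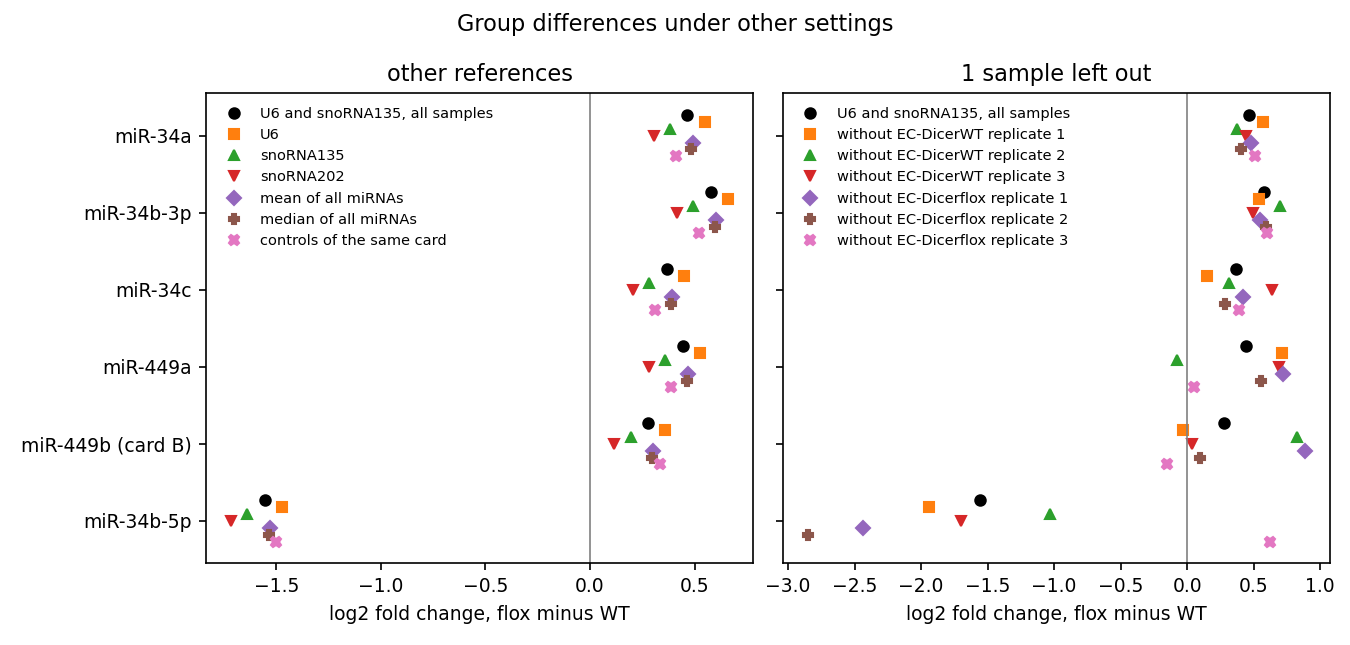
Log2 fold change (EC-Dicerflox minus EC-DicerWT, horizontal axis, with a separate scale in each panel) of 6 family assays with other references (left) and with 1 sample left out in turn (right). Black points are the values with U6 and snoRNA135 and all samples. MiR-34a, miR-34b-3p and miR-34c lie above 0 in both panels, whereas miR-449a, miR-449b and miR-34b-5p cross 0 when 1 sample is left out.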

How the data were processed

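Total RNA of 3 EC-Dicerflox and 3 EC-DicerWT aortas was reverse-transcribed, pre-amplified and run by the authors on TaqMan microRNA array cards. The authors deposited raw CT values, which are on a log2 scale, not normalised, and listed at 40 where undetermined; how threshold and baseline were set is not given in the sources used here. Columns were assigned by sample name, and 0 were left unused. Cards A and B (335 and 261 assays) were told apart by the style of the assay numbers, since the table names no card. The labels call the mice male and the paper female, and no result uses the sex.

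Delta CT was the CT minus the mean of the 4 values of U6 and snoRNA135, and the log2 fold change minus its group difference. All 461 miRNAs under a CT of 40 in at least 1 sample were fitted with limma 3.58.1 in R 4.3.3 (prior of 1.31 degrees of freedom) and p-values adjusted by the Benjamini-Hochberg method. Single values were compared by exact two-sided permutation over 20 arrangements. The fit was tested on simulated data. The number of arrays, 3 per group, limits the precision. The labels call the samples biological replicates. Equal replicate numbers in the labels were taken as pairs, because the deviations from the group means of such samples correlated at 0.15, 0.22 and 0.43 over 350 miRNAs, each above the 0.1 required. Unequal numbers reached 0.29, and no source used here ties a number to a litter or a day. The block was an alternative.

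The members and all lists were chosen with earlier results of these data known. Named were all members, the 3 nearest miRNAs of each, the highest and lowest miRNA of the lists on p53 and ageing, and, from the cell type lists after their values were seen, miR-126-3p, miR-142-5p, miR-223, miR-200a, miR-203, miR-205, miR-429 and miR-208. Alternatives were other references, other treatments of undetermined wells, filters, an ordinary linear model, trend and robust moderation, the block and leaving out each sample. Other miRNAs entered only the fit, the counts over all miRNAs, the lists and the search for similar miRNAs.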

Additional observations from a re-analysis of the deposited data

How the results depend on the processing

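The direction of miR-34a and miR-34b-3p was the same in all 14 alternatives and in each of the 6 fits without 1 sample, and neither passed the adjusted test in any of them. The log2 fold change ranged from 0.30 to 0.55 for miR-34a and from 0.42 to 0.66 for miR-34b-3p. In limma or the ordinary linear model without moderation, the unadjusted p of miR-34a was 0.0232 to 0.275, under 0.05 in 1 of the 14, and that of miR-34b-3p was 0.0106 to 0.192, under 0.05 in 4 of the 14. With 1 sample left out, the log2 fold change was 0.38 to 0.57 for miR-34a, 0.49 to 0.70 for miR-34b-3p and 0.15 to 0.64 for miR-34c. In the same fits it was -0.077 to 0.72 for miR-449a, -0.15 to 0.88 for miR-449b on card B and -2.85 to 0.62 for miR-34b-5p. The assay named miR-34b is left out here, since it passed the filter only through EC-DicerWT wells. For miR-34b-5p the log2 fold change was 0.62 with undetermined wells left missing and 0.11 with CT values above 35 set to 35. With samples at the limit left out, the distance of miR-34b-5p to miR-34a differed by -0.11 cycles and that to miR-34b-3p by -0.022. Without 1 sample, the group difference of the distance to miR-34a was -0.32 to 0.029 cycles for miR-34b-3p, -0.19 to 0.42 for miR-34c, -0.11 to 3.26 for miR-34b-5p, -0.25 to 0.46 for miR-449a and -0.45 to 0.66 for miR-449b. It was -0.15 to 0.40 for miR-34c to miR-34b-3p, -0.88 to -0.46 for miR-34c to miR-34c* and -0.022 to 3.44 for miR-34b-5p to miR-34b-3p. Over all miRNAs, 9 were lower and 5 higher at an unadjusted p under 0.05. The lower were 14 with snoRNA202 alone, and the higher 3 with U6 alone, 14 with the ordinary linear model and 8 with trend and robust moderation. Without 1 sample the lower were 7 to 12 and the higher 4 to 10, and the adjusted test then called 2 miRNAs without EC-Dicerflox replicate 1 and 1 without EC-Dicerflox replicate 3, against 0 with all samples. The cause of these shifts was not tested. The replicate block changed no adjusted call and no call of a member: blocked p was 0.163 for miR-34a, 0.097 for miR-34b-3p and 0.336 for miR-34c, with 11 miRNAs lower and 4 higher at an unadjusted p under 0.05. MiR-34b could not be fitted with undetermined wells missing or under the stricter filters, and miR-449b on card A only without a filter.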
